A study of Mus musculus with 12 samples.

Results

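The SLAM family receptor cluster is a row of immune cell surface receptor genes on mouse chromosome 1, and 7 of its genes were examined here in ATAC-seq data: Cd244a, Ly9, Slamf7, Cd48, Slamf1, Cd84 and Slamf6. ATAC-seq marks open chromatin, because a transposase inserts sequencing adapters where DNA is accessible. Every deposited accessible interval within 50 kb of the body of 1 of these genes was taken if that gene was its nearest of 21887 protein-coding genes. This gave 269 of 603679 intervals over all libraries. Those among a library's 35110 strongest gave 21 of the 45082 merged regions found in at least 2 libraries. Some of the 269 lay outside these regions, at 11 weak places. The other 7 of the 276 intervals within 50 kb were nearer to another gene. The farthest interval kept lay 14713 bp from its gene, and the first interval beyond the limit lay 51562 bp away.

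SLAM family receptors sit on lymphocytes and other blood cells, and most bind a copy of themselves on a neighbouring cell. CD244 differs in that it binds CD48, a lipid-anchored partner. Their tails recruit the small adaptors SAP and EAT-2, and in NK cells these adaptors and inhibitory phosphatases influence whether a receptor promotes or restrains killing.

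The libraries were made from 100000 NK cells each, taken from mouse spleen. There were 4 groups of 3 libraries: KO stimulated (Reg-1ΔNK cells given IL-12/18), WT stimulated (Reg-1fl/fl cells given IL-12/18), KO control (Reg-1ΔNK cells without the cytokines) and WT control (Reg-1fl/fl cells without them). Reg-1 is Regnase-1, an RNase that destroys inflammatory mRNAs. IL-12 and IL-18 are cytokines that activate NK cells. The WT cells carry the floxed allele. The Cre driver, the cytokine doses and the time of treatment are not given in the sources used here, nor is whether libraries came from separate animals, so p-values measure the spread between these libraries, which may be technical.

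Peak lists of 35110 to 54303 distinct intervals came from KO stimulated libraries, of 55146 to 63128 from WT stimulated, of 46971 to 53258 from KO control and of 42520 to 53440 from WT control. KO stimulated replicate 1 stood apart, with the shortest list. Every library was therefore reduced to its 35110 strongest intervals and each interval was ranked by its deposited −log10 q, rank 1 being the strongest. Of 8 NK marker genes, 7 had regions (all but Nkg7), and 31 to 38 of their 47 regions were called in KO stimulated, 40 to 42 in WT stimulated, 36 to 38 in KO control and 40 to 42 in WT control libraries. The B cell genes Cd79a and Ms4a1, the T cell genes Cd4 and Cd8a and the myeloid genes Csf1r and Lyz2 had no region. Other markers on the same lists did: 3 of 5 T cell genes had 6 regions, of which 5 to 6 were called in KO stimulated, 4 to 5 in WT stimulated, 5 to 6 in KO control and 4 to 5 in WT control libraries. A single B cell gene of 4 had 6 regions, of which 3 to 4 were called in KO stimulated, 4 to 5 in WT stimulated, 3 to 4 in KO control and 3 in WT control libraries. Of myeloid genes 2 of 4 had 5 regions, with 3 to 5 called per library, and of erythroid genes 2 of 3 had 2 regions, with 1 to 2 called. The part of such cells in the results was not tested. Zc3h12a, which encodes Regnase-1, had 6 to 8 of its 8 regions called per library, and such intervals do not check the deletion.

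A rank is a place in a library's own list, so a change of rank is relative to the other regions of that library. Differences are log2 ratios of ranks, written so that a positive value means nearer the top of the list in the first-named group. They were fitted with limma over all 45082 regions, and a region passed at a Benjamini-Hochberg adjusted p under 0.05. A library without an interval in its reduced list took the rank 35111, which understates differences and makes the spread of that group look smaller. Each library pools many cells, so fewer cells with an open region and less opening per cell cannot be told apart.

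**Figure D1:**
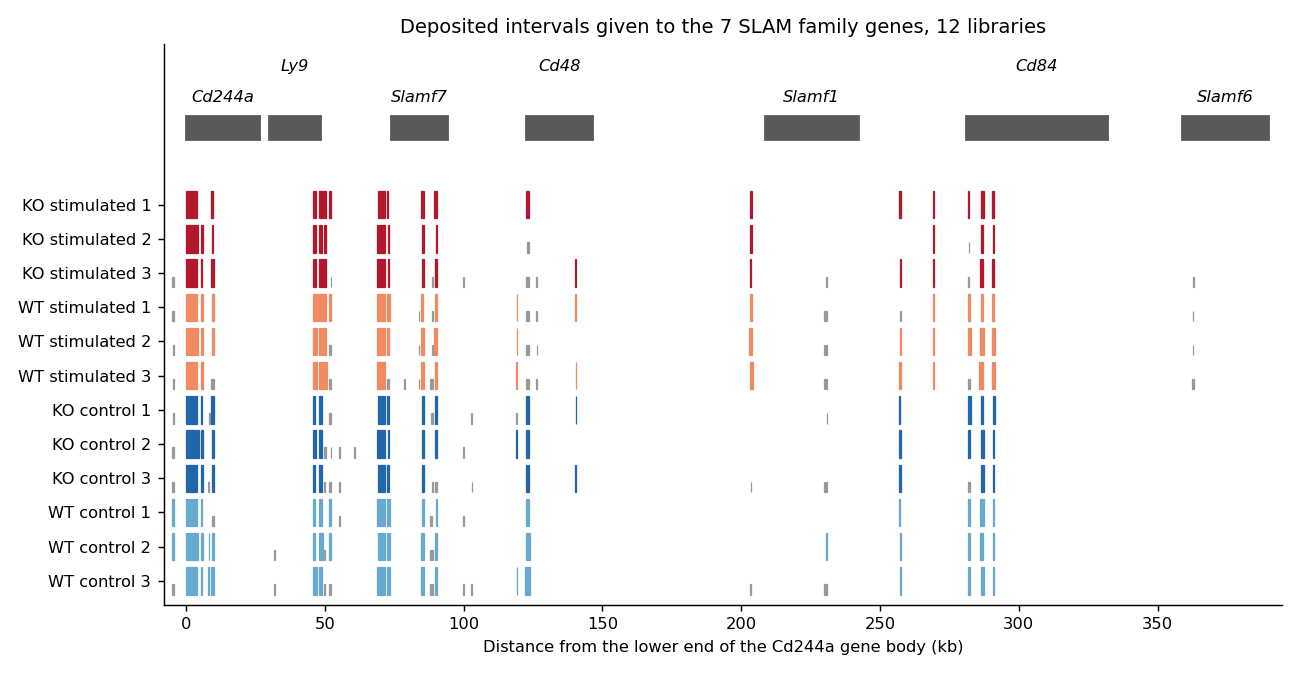
Deposited intervals given to the 7 genes (grey bars at the top mark gene bodies) in each of the 12 libraries, against distance in kb from the lower end of the Cd244a gene body. Tall coloured boxes are intervals within a library's 35110 strongest and short grey boxes are weaker ones. The stimulated libraries share an interval before Cd84 that no control library has, and Slamf6 holds only weak intervals.

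Open chromatin was unevenly spread along the cluster. Cd244a had 5 regions, Slamf7 4, Cd84 4, Ly9 3, Cd48 3, Slamf1 2 and Slamf6 none. Each reduced list held 13 to 16 of the 21 regions in KO stimulated libraries (14.7 ± 1.53, SD, n = 3), 14 to 17 in WT stimulated (15.7 ± 1.53, n = 3), 13 to 15 in KO control (14.3 ± 1.15, n = 3) and 15 to 17 in WT control (16.0 ± 1.00, n = 3). These ranges overlap, so the number of open regions in the cluster did not separate the groups.

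The start sites themselves were open at only some of the genes. The 250 bases before the RefSeq start site (assembly GRCm38.p6, the assembly of mm10) are shown for 3 genes whose window overlapped a deposited interval in 12 of 12 libraries and for 2 genes with an interval there in 0 of 12. Capitals mark matches, on either strand, to any of 5 motifs: TGANTCA (AP-1 type), TTCNNNGAA (STAT type), an NF-kB type (GGG, 5 bases of any kind, CC), TGTGGT (RUNX type) and AGGTGT (T-box type).
Cd244a: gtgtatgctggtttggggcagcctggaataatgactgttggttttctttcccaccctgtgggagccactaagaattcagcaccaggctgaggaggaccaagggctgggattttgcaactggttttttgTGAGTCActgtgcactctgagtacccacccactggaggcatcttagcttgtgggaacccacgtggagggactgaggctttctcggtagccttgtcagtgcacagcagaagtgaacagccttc
Slamf7: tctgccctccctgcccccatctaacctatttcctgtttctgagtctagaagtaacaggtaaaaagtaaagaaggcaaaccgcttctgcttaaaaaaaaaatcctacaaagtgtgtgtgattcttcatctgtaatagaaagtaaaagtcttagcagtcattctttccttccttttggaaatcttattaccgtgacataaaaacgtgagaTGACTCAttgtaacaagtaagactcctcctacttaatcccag
Cd48: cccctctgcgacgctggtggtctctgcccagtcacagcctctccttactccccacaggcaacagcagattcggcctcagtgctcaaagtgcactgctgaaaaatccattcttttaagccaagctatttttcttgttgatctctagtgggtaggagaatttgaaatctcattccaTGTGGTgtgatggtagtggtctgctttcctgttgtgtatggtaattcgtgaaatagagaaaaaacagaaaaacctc
Slamf1: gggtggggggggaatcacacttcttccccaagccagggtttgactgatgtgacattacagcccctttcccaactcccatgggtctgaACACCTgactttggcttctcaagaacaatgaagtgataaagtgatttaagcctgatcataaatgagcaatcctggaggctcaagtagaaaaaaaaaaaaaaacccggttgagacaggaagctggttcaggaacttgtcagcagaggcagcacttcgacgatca
Cd84: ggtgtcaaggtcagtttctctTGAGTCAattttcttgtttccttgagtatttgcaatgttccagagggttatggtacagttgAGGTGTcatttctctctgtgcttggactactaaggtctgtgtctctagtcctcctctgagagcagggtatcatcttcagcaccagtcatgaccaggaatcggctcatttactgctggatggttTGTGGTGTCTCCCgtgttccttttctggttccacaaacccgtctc
The windows lie at chr1:171558943-171559192 for Cd244a (plus strand), chr1:171649000-171649249 for Slamf7 (minus strand), chr1:171681742-171681991 for Cd48, chr1:171766882-171767131 for Slamf1 and chr1:171839447-171839696 for Cd84 (all plus strand). Within the reduced lists the Cd244a window was covered in 12 libraries, that of Slamf7 in 11 and that of Cd48 in 7. A letter match of the AP-1 type was present once each in the Cd244a, Slamf7 and Cd84 windows, of which the last had no interval. The Cd48 window held 1 RUNX type match and the Slamf1 window 1 T-box type match. The Slamf6 window, not shown, also overlapped an interval in 0 of 12 libraries and held 1 NF-kB type match. In Cd84 the RUNX and NF-kB type matches overlap in the longest run of capitals. Of 32851 mouse promoter windows of this length, 6.75% hold the AP-1 type, 7.02% the STAT type, 45.8% the NF-kB type, 14.0% the RUNX type and 11.8% the T-box type. These are letter matches, not measured binding.

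With stimulation, regions of Cd84, Ly9 and Slamf7 changed rank, and a region of Slamf1 was listed in stimulated libraries alone. Averaged over genotypes, 9 of the 21 regions passed, 8 nearer the top and 1 further down, while 46.7% of all regions passed (21.0% nearer the top and 25.7% further down). As a share, 42.9% of the cluster's regions passed, which is near the background and is not a result about the family. The median difference was 0.02 over the 21 regions and −0.05 over all regions. In KO cells 4 regions passed, all nearer the top, against 30.2% of all regions (13.7% nearer the top). In WT cells 7 passed, 6 of them nearer the top, against 35.9% of all regions (17.3% nearer the top). The regions before Cd84 and before Slamf1 entered the set through stimulated libraries alone and had to differ. These counts and shares include them: the Cd84 region in KO, in WT and averaged, the Slamf1 region in WT and averaged. Their passing is no evidence of a response, and they are described below without a test of stimulation.

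Cd84 encodes a self-binding receptor of many blood cells, and it held the largest stimulation differences of the cluster. Its region 4 (chr1:171849149-171850128) lies inside the gene, 9452 bp after the start site. It ranked 5553, 9516 and 8187 in KO stimulated libraries, against 19962, 20588 and 21401 in KO control. It ranked 8472, 6509 and 7702 in WT stimulated libraries, against 23353, 19685 and 19255 in WT control. All 6 stimulated libraries lay above all 6 controls in the list, with no overlap in either genotype. Such separation nearer the top is common, at 16.5% of all regions in KO and 24.2% in WT. The difference at region 4 was 1.45 ± 0.18 (SE) in KO and 1.46 ± 0.18 in WT (limma, Benjamini-Hochberg adjusted p = 0.000229 and 0.000152). KO and WT stimulated libraries differed by −0.01 ± 0.18 in this region (limma adjusted p = 1). Without KO stimulated replicate 1 the KO difference was 1.23 ± 0.13.

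Region 1 of Cd84 (chr1:171827773-171828258) lies outside the gene, 11439 bp before its start. It ranked 23809, 18494 and 24053 in KO stimulated and 16377, 19451 and 19088 in WT stimulated libraries. None of the 6 control libraries had a deposited interval there of any strength, so their ranks were set to 35111. Differences in presence with stimulation were common. An exact test of presence in the reduced lists passed 5277 of 45082 regions, in either direction, of which 8834 could be tested. Cd84 region 1 was listed with stimulation alone in both genotypes, and the share of all regions with exactly this pattern was not counted. It entered the set through the stimulated libraries, so no test of stimulation is given. The difference between KO and WT stimulated libraries, −0.27 ± 0.10, did not pass (limma adjusted p = 0.181).

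Region 3 of Cd84 (chr1:171844417-171846159), 4720 bp inside the gene, was the gene's strongest by mean rank over all libraries. It ranked 7161, 11565 and 13762 in KO stimulated and 10307, 10627 and 11733 in WT stimulated libraries. The ranks were 15663, 14142 and 14457 in KO control and 12742, 14490 and 12356 in WT control. Each stimulated trio lay above the controls of its own genotype. Averaged over genotypes the difference was 0.39 ± 0.14 (limma, Benjamini-Hochberg adjusted p = 0.0421), and it did not pass when 9 of the 12 libraries were left out in turn. Region 2 (chr1:171840360-171841546), 663 bp after the start, was called in 8 libraries and did not pass (limma adjusted p = 0.985).

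**Figure D2:**
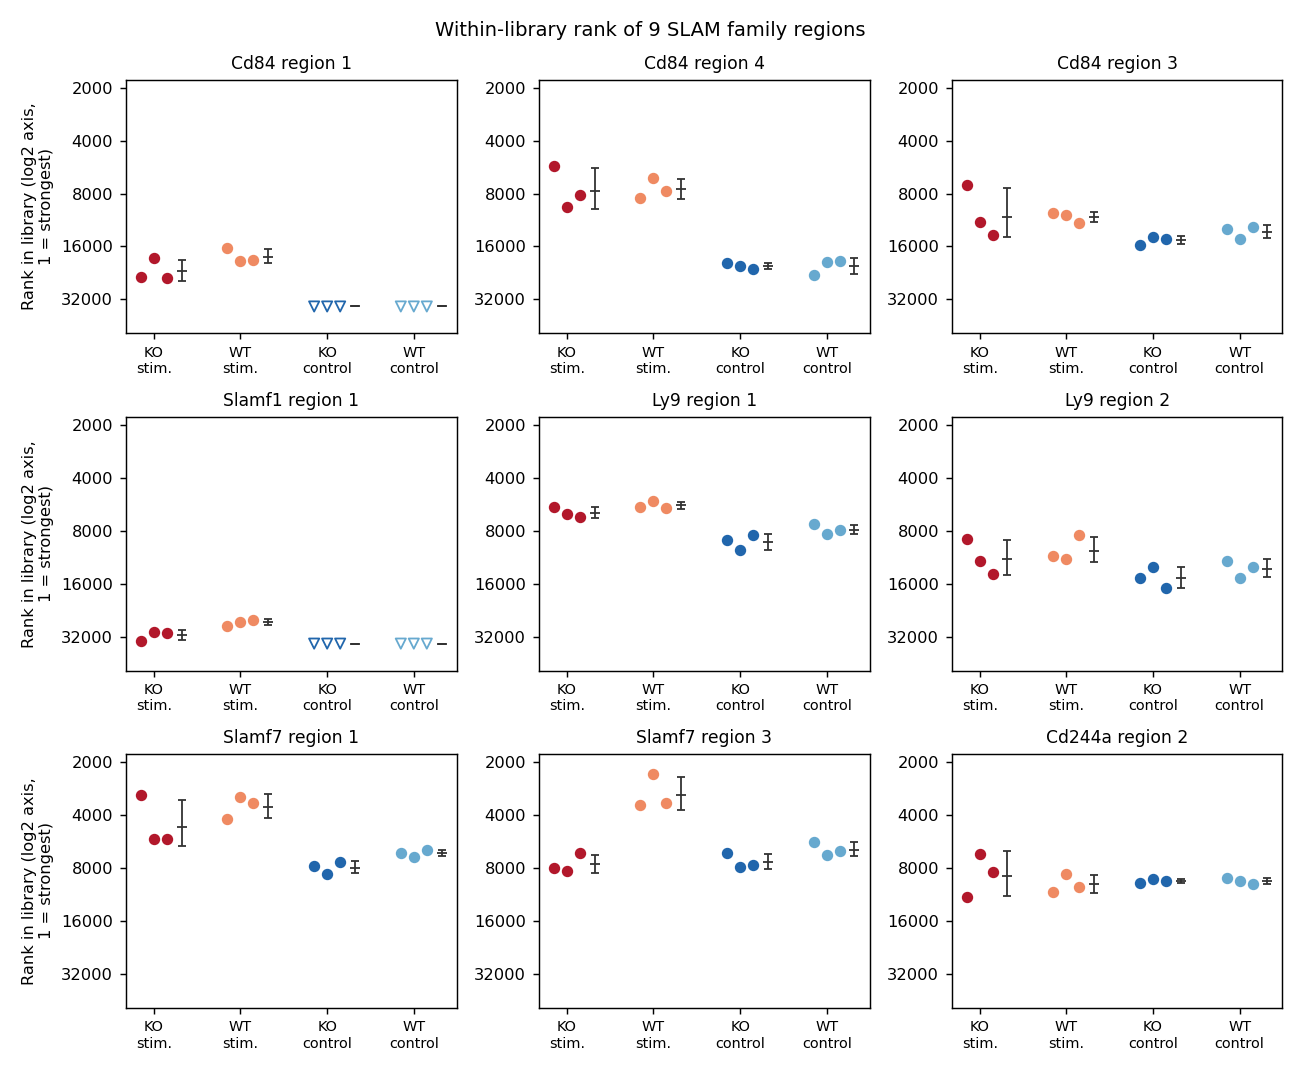
Rank of 9 regions within the 35110 strongest intervals of each library (log2 axis with rank 1 at the top), by group. Filled points are libraries, open triangles are libraries without an interval in the list, set to 35111, and bars show the mean ± SD of 3 libraries. Cd84 region 4 separates stimulated from control libraries in both genotypes, while Slamf7 region 3 stands apart in WT stimulated libraries, at ranks 2342 to 3498.

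Ly9 encodes a self-binding receptor of lymphocytes, and its open chromatin clustered at the upper end of the gene body. Region 1 (chr1:171604316-171606057) ranked 5829, 6439 and 6667 in KO stimulated libraries, against 9049, 10346 and 8481 in KO control. In WT it ranked 5841, 5427 and 5956 in stimulated libraries, against 7362, 8378 and 7923 in control. The stimulated libraries were above the controls without overlap in both genotypes. The difference was 0.56 ± 0.09 in KO and 0.46 ± 0.09 in WT (limma, Benjamini-Hochberg adjusted p = 0.00118 and 0.00285).

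Ly9 region 2 (chr1:171606654-171609297) spans the upper end of the gene, and more of it was covered with stimulation. Width here means the bases of a region covered by a library's intervals, which can be more than 1. Its intervals covered 1864, 1802 and 2325 bp in KO stimulated libraries, against 1035, 1006 and 1048 bp in KO control. They covered 2288, 2031 and 2640 bp in WT stimulated libraries, against 1082, 1165 and 1174 bp in WT control. The added bases lay on the far side of the gene end. In KO stimulated replicates 1 and 2 and WT stimulated replicate 2 they were a separate interval, ranked 17893, 16067 and 16746. In the other stimulated libraries 1 interval spanned both sides. In KO control replicate 1 and WT control replicate 1 the deposited intervals stopped at position 171607723 and position 171607770, and in the other controls any further interval was below the list's end. The log2 width difference was 0.95 ± 0.12 in KO and 1.02 ± 0.12 in WT (limma over 21089 regions called in all libraries, Benjamini-Hochberg adjusted p = 0.00281 and 0.00132). Median interval widths of whole libraries were 853 to 996 bp in KO stimulated, 1030 to 1137 bp in WT stimulated, 964.5 to 999.5 bp in KO control and 959 to 1128 bp in WT control. With widths centred on the library median the difference was 1.07 ± 0.10 in KO and 0.98 ± 0.10 in WT, and both passed.

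A region takes the rank of its strongest interval, so its rank does not show a further one. The rank of Ly9 region 2 moved less than its width. It ranked 8861, 11916 and 14058 in KO stimulated, 11120, 11639 and 8502 in WT stimulated, 14944, 12894 and 16967 in KO control and 11834, 14835 and 12866 in WT control libraries. The average difference of 0.36 ± 0.13 passed (limma, Benjamini-Hochberg adjusted p = 0.0439), but neither genotype passed alone and the KO ranges overlap. Without KO stimulated replicate 1 it was 0.27 ± 0.11 and did not pass (limma adjusted p = 0.0681), nor did it with the replicate number as a block (limma adjusted p = 0.0592). Ly9 region 3 (chr1:171610169-171611044) was called in 4 libraries and did not pass.

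**Figure D3:**
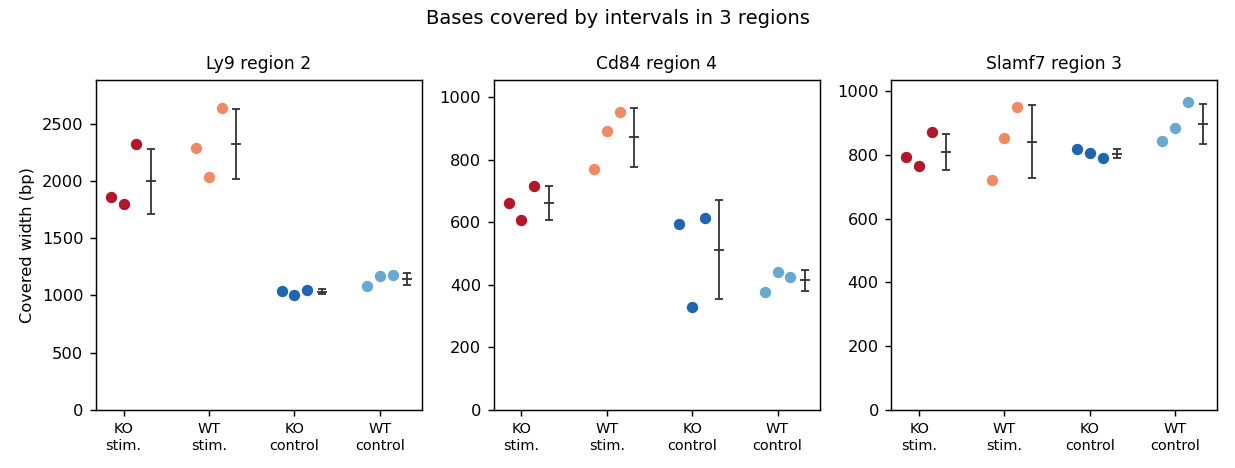
Bases covered by intervals (bp) in 3 regions that were called in all libraries, by group, with each point 1 library and bars the mean ± SD of 3. Ly9 region 2 covers 1802 to 2640 bp in stimulated and 1006 to 1174 bp in control libraries, and those of Slamf7 region 3 average 804 to 897 bp in the 4 groups.

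Of 7 cluster regions called in all 12 libraries, 2 were wider with stimulation and none narrower, against 13.9% of all such regions changed in width (7.19% wider). The second was Cd84 region 4, which covered 661 ± 53.5 bp in KO stimulated, 871 ± 93.1 bp in WT stimulated, 512 ± 158 bp in KO control and 414 ± 34.0 bp in WT control libraries (SD, n = 3 each). The log2 width difference was 1.07 ± 0.21 in WT and passed (limma, Benjamini-Hochberg adjusted p = 0.0133). In KO it did not pass. Taken by genotype, 1 of the 7 regions passed in KO, against 5.23% of all such regions, and 2 passed in WT, against 5.77%. No cluster region differed in width between genotypes averaged over treatments, against 3.05% of all regions, and none had an unadjusted limma p under 0.05 in that comparison.

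Slamf7 encodes CRACC, a self-binding receptor that can activate NK cells, and its regions followed different patterns. The strongest, region 1 (chr1:171627443-171630418), lies 1985 bp beyond the lower end of the gene, on the side away from its start. It ranked 3096, 5446 and 5465 in KO stimulated libraries, against 7829, 8654 and 7443 in KO control. It ranked 4241, 3151 and 3400 in WT stimulated libraries, against 6581, 6903 and 6372 in WT control. The stimulated libraries were above the controls in both genotypes, by 0.82 ± 0.20 in KO and 0.89 ± 0.20 in WT (limma, Benjamini-Hochberg adjusted p = 0.0118 and 0.00623). Without KO stimulated replicate 1, which ranked it highest of the KO libraries, the KO difference was 0.54 ± 0.12 and still passed.

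Slamf7 region 3 (chr1:171643352-171644408), inside the gene and 4591 bp after its start site, differed by genotype. It ranked 7971, 8319 and 6618 in KO stimulated libraries, against 3498, 2342 and 3439 in WT stimulated. It ranked 6611, 7932 and 7729 in KO control libraries, against 5666, 6798 and 6451 in WT control. Every WT stimulated library was above the other 9, and KO and WT control overlapped. Such separation is not rare. KO stimulated lay wholly further down than WT stimulated in 11.0% of all regions, and WT stimulated wholly nearer the top than WT control in 24.2%. With stimulation the KO minus WT difference was −1.32 ± 0.16 (limma, Benjamini-Hochberg adjusted p = 0.00191), and without it −0.24 ± 0.16 (limma adjusted p = 0.676). Stimulation moved the region by 1.05 ± 0.16 in WT (limma adjusted p = 0.000614) and by −0.04 ± 0.16 in KO (limma adjusted p = 0.912). The test of the difference between these responses gave −1.09 ± 0.23 and did not pass over all regions (limma unadjusted p = 0.000761, adjusted p = 0.0639). It also did not pass in 11 of 12 fits that left out 1 library, nor in 7 of 8 other changes of the processing. The exceptions were calls that had to cover 50% of a region (limma adjusted p = 0.0448) and the fit without KO stimulated replicate 3 (limma adjusted p = 0.0372).

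The lists of KO stimulated libraries were shorter than those of WT stimulated ones, and fewer NK marker regions were called in them. The part of either in the Slamf7 result was not tested. Without the shortest list, that of KO stimulated replicate 1, the difference in stimulated cells was −1.29 ± 0.18. Reduced lists ended at a −log10 q of 1.31, 4.60 and 13.2 in KO stimulated libraries, against 16.6, 17.3 and 27.1 in WT stimulated. The part of these ends in the result was not tested either.

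Across the cluster, 2 regions passed between KO and WT stimulated libraries, both further down in KO, against 6.07% of all regions in either direction and 3.94% further down. They were Slamf7 region 3 and Slamf1 region 1. In control cells 0 of 21 passed with limma, with 1 at an unadjusted p under 0.05, against 2.43% of all regions passing. Differences there ran from −0.27 to 0.27. Averaged over treatments, Slamf7 region 3 passed at −0.78 ± 0.11 (limma, Benjamini-Hochberg adjusted p = 0.00439), as 1 of 21 against 6.86% of all regions (4.47% further down). An exact permutation test of its ranks within treatments gave p = 0.01 unadjusted, and no region of the whole data passed that test after adjustment. No cluster region passed the interaction in limma, with 2 at an unadjusted p under 0.05, against 0.954% of all regions passing.

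**Figure D4:**
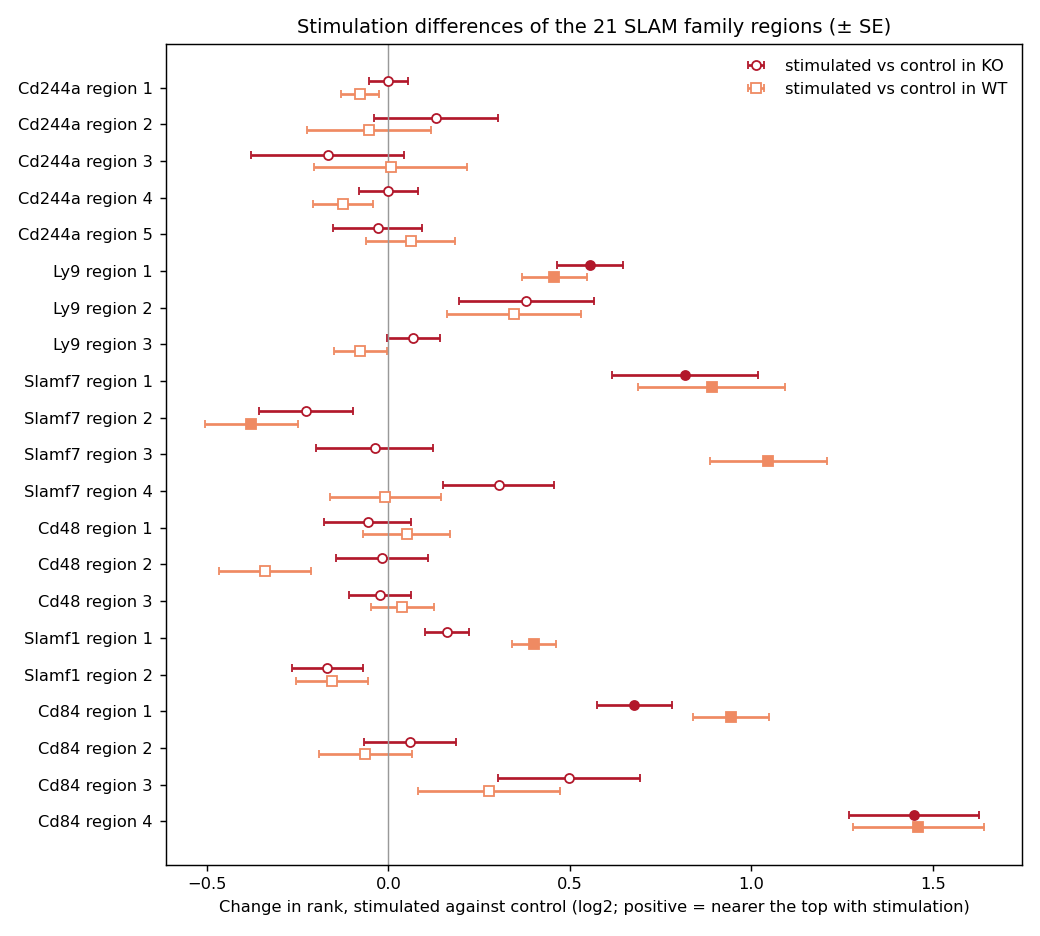
Log2 rank difference of stimulated against control libraries ± SE for all 21 regions, with circles for KO and squares for WT. Filled symbols passed at a limma adjusted p under 0.05, which for Cd84 region 1 and Slamf1 region 1 follows from how they entered the set. Cd84 region 4 lies furthest right in both genotypes, and Slamf7 region 3 is at −0.04 in KO and 1.05 in WT.

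The other Slamf7 regions moved little or the other way. Region 2 (chr1:171630989-171632202), just beyond the lower gene end, was the 1 cluster region further down with stimulation. It ranked 30458, 27659 and 29889 in KO stimulated libraries, against 22766, 26710 and 25804 in KO control. In WT stimulated libraries it ranked 30297 and 25351 and was missing from the third list (set to 35111), against 25497, 20076 and 23982 in WT control. The average difference was −0.30 ± 0.09 (limma, Benjamini-Hochberg adjusted p = 0.0198). Its neighbour region 1 moved the other way. Region 4 (chr1:171647948-171649237), over the Slamf7 start site, was called in 11 libraries at a mean rank of 30928. Its difference of 0.15 ± 0.11 did not pass.

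Within Slamf7 region 1 the balance between a pair of summits also differed. A summit is the point of highest signal that the peak caller marks inside an interval. The lower one lay 2321 to 2396 bp, and the upper one 915 to 1120 bp, below the upper end of the region. The deposited fold of the lower summit over that of the upper was 0.635, 0.630 and 0.849 in KO stimulated libraries, against 0.493, 0.536 and 0.414 in KO control. The ratio was 0.851, 0.713 and 0.758 in WT stimulated libraries, against 0.357, 0.346 and 0.442 in WT control. Stimulated and control ratios did not overlap. This pair was chosen after its values were seen, so no test is given.

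Cd244a encodes the receptor CD244, also called 2B4, and its start site lay in the widest open region of the cluster. Region 2 (chr1:171558558-171563387) ranked 11735, 6686 and 8413 in KO stimulated, 10924, 8632 and 10242 in WT stimulated, 9796, 9315 and 9493 in KO control and 9178, 9455 and 9941 in WT control libraries. The groups overlap, and the average stimulation difference of 0.04 ± 0.12 did not pass. It was open in every library of every group.

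The shape of Cd244a region 2 differed although its rank did not pass. In KO stimulated libraries the strongest summit was within 110 bp of the start site in replicates 1, 2 and 3. Among WT stimulated libraries it was 29 bp before the start in replicate 3 and 2627 bp after it in replicates 1 and 2. In all 6 control libraries it lay 2637 to 2874 bp after the start. A smaller inner summit, 976 to 1137 bp after the start, had a deposited fold of 0.844, 0.368 and 0.510 times that of the start-site summit in KO stimulated libraries, against 0.241, 0.214 and 0.133 in KO control. In WT the ratio was 0.674, 0.642 and 0.607 in stimulated libraries, against 0.273, 0.216 and 0.201 in control. Again the stimulated and control ratios did not overlap. This comparison was chosen after its values were seen and carries no test.

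**Figure D5:**
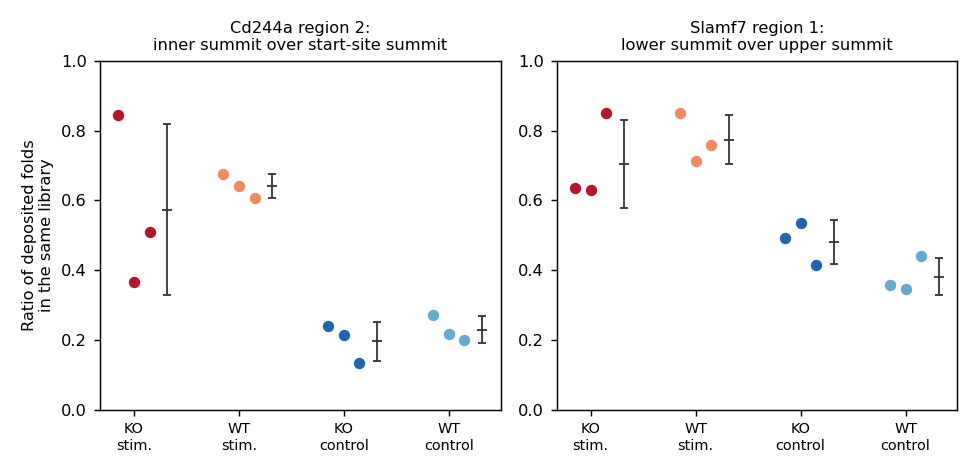
Ratio of the deposited folds of a pair of summits in the same library, for the region over the Cd244a start and for Slamf7 region 1, by group, with points for libraries and bars for the mean ± SD of 3. In both regions every stimulated library lies above every control library. The pairs were chosen after their values were seen, so this separation carries no test.

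The remaining Cd244a regions were weaker. Region 3 (chr1:171563915-171564739) was called in 11 libraries, region 5 (chr1:171567630-171568701) in 10, and region 1 (chr1:171553727-171554343) and region 4 (chr1:171566772-171567103) in 2 libraries, both WT control. None passed a rank test. Region 1 still had a weaker deposited interval in other libraries, with a deposited interval of any strength in 10.

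Cd48 encodes the ligand of CD244, and the region over its start site was low in the lists, though the strongest of its 3. Region 2 (chr1:171680950-171682774) was called in 1 of 3 KO stimulated, 0 of 3 WT stimulated, 3 of 3 KO control and 3 of 3 WT control libraries. All 12 libraries had a deposited interval there of some strength. The WT difference was −0.34 ± 0.13 and did not pass (limma, Benjamini-Hochberg adjusted p = 0.0612), and the KO difference was −0.02 ± 0.13. Region 1 (chr1:171677646-171678104), 3888 bp before the start, and region 3 (chr1:171698958-171699354), inside the gene, were each called in 5 libraries and did not pass. Over the 12 libraries the receptor's start region had a mean rank of 9484 and the ligand's 31762.

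Slamf1 encodes the founding receptor of the family, SLAM or CD150. Its region 1 (chr1:171761678-171762792), 4340 bp before the start, was in the reduced list of all 6 stimulated and of none of the control libraries. It ranked 33815, 30018 and 30533 in KO stimulated libraries, against 27757, 26332 and 25709 in WT stimulated. All controls were set to 35111, and KO control replicate 3 and WT control replicate 3 had weaker intervals below the list's end. As it entered the set through the stimulated libraries, no test of stimulation is given. The number of all regions that differ in presence with stimulation is given above, with Cd84 region 1. The KO minus WT difference in stimulated libraries was −0.24 ± 0.06 (limma, Benjamini-Hochberg adjusted p = 0.0463), and it did not pass when 10 of the 12 libraries were left out in turn, among them KO stimulated replicate 1 (limma adjusted p = 0.0563). The equal ranks set for all controls lower the spread in this fit. Region 2 (chr1:171815695-171816288), 14511 bp beyond the gene, was called in 10 libraries and did not pass.

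Slamf6 encodes Ly108, known in humans as NTB-A, and had no region. Its window before the start site overlapped no interval. A weak interval inside the gene (chr1:171921085-171921804), 3623 bp after the start, was deposited in 1 of 3 KO stimulated, 3 of 3 WT stimulated, 0 of 3 KO control and 0 of 3 WT control libraries. It ranked 40864 to 42360 in those full lists, with deposited folds of 4.51 to 6.15. Depth is unknown from peak lists. The WT stimulated lists were the longest of the 4 groups, and their length's part in this count was not tested.

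In all, 11 weak places near the genes were called in at most 1 reduced list. Slamf7 held 5 of them, Ly9 3, and Cd48, Slamf1 and Slamf6 1 each.

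The partners that carry SLAM signals were read from a list of 14 genes, of which 12 had 75 regions in all. With stimulation, averaged over genotypes, 16 of the 75 passed nearer the top and 32 further down. Of all regions, 21.0% passed nearer the top and 25.7% further down (46.7% in either direction). Whether the list or any gene in it departs from these shares was not tested. Fyn, the kinase that SAP brings to the receptors, had 13 of 23 regions nearer the top and 2 further down, and its largest difference was 2.13 ± 0.12 at chr10:39484293-39488822 (limma, Benjamini-Hochberg adjusted p = 7.38e-07). The genes of phosphatases and of Csk had most regions further down. Ptpn6 (the phosphatase SHP-1) had 3 of 3 regions further down, Ptpn11 (SHP-2) 3 of 4, Inpp5d (SHIP-1) 6 of 9 and Csk, which restrains Src family kinases such as Fyn, 6 of 7. The largest were −1.28 ± 0.07 at Ptpn6, −1.50 ± 0.12 at Ptpn11, −0.88 ± 0.10 at Inpp5d and −1.61 ± 0.18 at Csk. The adaptor genes were mixed: Sh2d1a (SAP) had 1 region nearer the top and 1 further down, Sh2d1b1 (EAT-2) 1 of 3 further down, and Sh2d1b2 1 nearer the top and 2 further down of 4. Among the others, Vav1 had 3 of 6 regions further down, Plcg2 1 nearer the top and 4 further down of 9, Cd2 1 of 3 further down and Plcg1 none of 2 that passed. Slamf8 and Slamf9 had no region. Between KO and WT stimulated libraries, 2 of the 75 passed nearer the top and 3 further down, a share near the 6.07% of all regions. In control cells 0 passed with limma, against the 2.43% of all regions given above.

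Each member's strongest region was also set beside the strongest regions of 14357 genes by the Pearson correlation of log2 rank over the 12 libraries, which share 4 groups and 2 treatments, so the values mostly follow those groups. The highest values were with Dnajc15 for Slamf7 (0.979), Cd247 for Ly9 (0.974), Cflar for Cd84 (0.961), Bend5 for Cd48 (0.950), Golph3 for Slamf1 (0.938) and Skor1 for Cd244a (0.916). Next in order for Cd84 were Bach1 (0.959) and Cep295nl (0.957), for Slamf7 Rhoq (0.971) and Soat2 (0.969), and for Ly9 Dnajc15 (0.962) and Mylk2 (0.957). These are descriptions and carry no p.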

How the data were processed

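ATAC-seq peak lists of 12 libraries of mouse splenic NK cells were used, with groups and replicate numbers from the sample titles. Per the submitters' processing notes, MACS2 2.1.1.20160309 and deepTools 3.4.2 were used besides Bowtie2 2.3.4.1, SAMtools 1.15.1, cutadapt 4.1 and FastQC 0.11.9, with build mm10. Their roles and settings, and any shift of reads for the transposase cut, are not given in the sources used here. The authors deposited 1 list per library, called separately. The deposited fold is a ratio, a summit's signal over its own library's background, and the deposited −log10 q value belongs to the same summit. Both were used only within a library.

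Summits of 1 interval were joined, taking the strongest. Chromosomes 1 to 19, X and Y were used. Lists were reduced to 35110 intervals, merged where they shared 1 bp, and kept as regions where called in at least 2 libraries. Regions went to the nearest protein-coding gene body (RefSeq, GRCm38.p6) within 50 kb. The gene table gives no exons or introns. Promoter windows matched 6 of 7 members, and Ly9 was not among them.

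Log2 ranks and widths were fitted with limma 3.58.1 (R 4.3.3) over all regions with 4 group means. On simulated data for the stimulation comparison averaged over genotypes, over 45082 regions, the fit recovered 19% of 100 regions shifted by 0.5 and 71% of 100 shifted by 1 on the log2 scale, with 14 false calls. Few regions were shifted there, while 46.7% passed in the data, and the adjusted threshold depends on that share. These rates therefore do not describe the test of the real data. For stimulation in KO, same-numbered libraries deviated together (correlations of 0.131 to 0.167 in 3 of 3 pairs), so the replicate numbers are taken to pair them, a pairing read from the data and not from the labels. Exact permutation tests within genotype or treatment had 400 rearrangements and a smallest p of 0.005. A comparison of 3 libraries against 3 cannot go below p = 0.1 in an exact test. Tables used Python 3.11.15.

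Named regions were each member's strongest, the one over its start, every one that passed, and for Slamf6 its weak interval, and the rest are given briefly. Named genes of like pattern were the highest in correlation. Members, gene lists and motifs were chosen with earlier results of these data known. Read depth is unknown, as the lists hold none. The reduced lists end at a −log10 q of 1.31 in KO stimulated replicate 1, and of 4.60 to 27.1 in the others. Alternatives changed the list length, rank scale, ranking column, region filter, overlap, region definition, gene distance and assignment, test and libraries.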

Additional observations from a re-analysis of the deposited data

Results flagged for a closer look

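Weak intervals, below the end of the reduced lists, appeared in WT stimulated libraries and in no WT control library at 3 places. At Slamf6 (chr1:171921085-171921804, inside the gene) 3 of 3 WT stimulated and 1 of 3 KO stimulated libraries had one. At Cd48 (chr1:171684920-171685201, 2928 bp after the start) the numbers were again 3 of 3 WT stimulated and 1 of 3 KO stimulated. At Slamf7 (chr1:171642460-171642775, 6224 bp after the start) 3 of 3 WT stimulated and 0 of 3 KO stimulated libraries had one. No KO control library had an interval at any of these 3 places. They drew attention because they lie outside the ranked data. The WT stimulated lists were also the longest, and the part of list length was not tested. Other weak places went the other way. All 3 weak places of Ly9, and that of Slamf7 at chr1:171661491-171661894, had intervals in control libraries alone. How common either pattern is over all weak intervals was not tested.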

How the results depend on the processing

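Over 29 values, which are those of single regions that passed (the regions before Cd84 and Slamf1 included, though stimulation is not tested there) together with the Slamf7 region 3 interaction, 534 recomputations kept the direction in every case, 477 stayed on the same side of the threshold, 55 no longer passed and 2 newly passed. The stimulation values of the regions before Cd84 and Slamf1 passed in every recomputation. That follows from how they entered the set, so they raise the total of 477 without showing stability. With lists of 17555 intervals, counts of regions passed were 4 for stimulation in WT, 4 for stimulation averaged over genotypes, 1 for KO against WT stimulated, and 6.5 regions were called per library. Using regions called in all 12 libraries gave 4 for stimulation in WT and 1 for KO against WT stimulated. Normal scores gave 1 for KO against WT stimulated. Calls that cover 50% of a region gave 1 for the interaction and 12.9 regions per library, and all deposited intervals gave 21.3 per library, against 15.2 in the reduced lists. Presence tests gave 3 (reduced lists) and 1 (all intervals) for averaged stimulation and 0 for averaged genotype, where the exact rank test also gave 0, with 2 regions at an unadjusted p under 0.05. The exact test gave 0 width changes with stimulation. In these the number of regions tested or the resolution of the test differs, and the cause was not tested further.

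Leaving out 1 library at a time gave 4 to 6 regions for stimulation in KO, 6 to 9 in WT, 7 to 10 averaged, 1 to 3 for KO against WT stimulated, 0 to 0 in control, 1 to 3 averaged over treatments, 0 to 1 for the interaction, 2 to 3 and 0 to 0 for width with stimulation and genotype, and 15 to 15.4 called per library. Without KO stimulated replicate 1 averaged genotype gave 3, and without KO control replicate 1 it gave 2.

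Same-numbered libraries correlated from 0.000493 to 0.482 (median 0.136, 18 pairs) and different numbers from −0.417 to 0.307 (median −0.0619, 36 pairs). In 27 of 36 cases a library's best match in another group had its own number. Outside stimulation in KO, not every same-numbered pair of the groups compared was over 0.1 (0.0549 to 0.154 for stimulation in WT, 0.000493 to 0.00739 for KO against WT stimulated, 0.0743 to 0.272 in control), so there the libraries are taken to share only a number, as far as that rule goes. With the replicate block, averaged stimulation gave 8, without Ly9 region 2, and KO against WT stimulated gave 1, without Slamf1 region 1. The block changed no other call of a region, those of stimulation in KO included. Depth is unknown, so an interval missing from a list is not shown to be absent.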
